A study of Mus musculus with 9 samples.

Results

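The genes described here encode 9 enzymes and enzyme subunits of the tricarboxylic acid cycle: Cs, Idh3a, Idh3b, Idh3g, Idh2, Ogdh, Suclg1, Sucla2 and Mdh2. They were taken by gene symbol from 25468 genes, the values of a gene's transcripts were added up, and all 9 were among the 13514 genes with a mean of 1 FPKM or more that were tested. FPKM counts sequenced fragments per length of transcript and per size of library, so levels of different genes can be set side by side.

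Bulk RNA sequencing was done on 9 libraries from whole-tissue RNA of wild-type mouse hearts. In 3 libraries the heart was taken 7 days after an acute myocardial infarction, in 3 libraries it was taken 1 day after infarction, and 3 libraries were from sham-operated hearts. The labels give neither the age of the mice nor the collection day of the sham hearts, and the same sham libraries served both infarct groups. Hearts without Hdc, which the series also describes, were not analysed here. Nothing in the labels says that the libraries of a group are from separate animals, so a p-value here covers the variation among libraries only, and part of that variation may be technical.

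The tricarboxylic acid cycle runs in the mitochondrial matrix and oxidises acetyl-CoA from fatty acids, pyruvate and ketone bodies to carbon dioxide. The electrons it releases are passed as NADH and as reduced flavin to the respiratory chain. Heart muscle cells are packed with mitochondria and meet nearly all of their energy demand this way, so genes of the cycle stand high in heart RNA.

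Libraries differed in ways the labels do not give. FPKM summed to 521643 to 679204 at day 7, 597380 to 729940 at day 1 and 768943 to 792632 in sham, and the number of reads behind them is unknown. Day 7 replicate 1 had the lowest sum, and mitochondrially encoded genes took 24.4% of its FPKM, against 34.2% to 39.8% in the other 8 libraries. Airway and lung markers summed to 1614 FPKM in day 1 replicate 2 and 202 FPKM in sham replicate 1, against 16.7 FPKM or less elsewhere, and Scgb1a1, an airway secretory protein, was listed at 0 in day 1 replicate 3 and in sham replicates 2 and 3. Fat cell markers summed to 472 FPKM in sham replicate 1, against 116 FPKM or less elsewhere. Skeletal muscle markers at 123 FPKM and T cell markers at 52 FPKM stood out in day 7 replicate 2, and atrial markers ranged from 229 to 10948 FPKM over the 9 libraries. The heart label was borne out by its markers: Myh6, the main myosin heavy chain of mouse heart muscle, averaged 4283 FPKM at day 7, 4604 FPKM at day 1 and 7021 FPKM in sham.

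All 9 cycle genes were lower in each of the 3 day 7 libraries, and in each of the 3 day 1 libraries, than in any sham library. Idh2, the NADP-dependent isocitrate dehydrogenase of mitochondria, differed most and fell to 38% of its sham mean at day 7 and 44.5% at day 1. The median gene of the 9 was at 63.6% of sham at day 7 and 71.9% at day 1. With limma and Benjamini-Hochberg adjustment over all genes tested, 5 of 9 fell at day 7 (Idh2, Sucla2, Idh3b, Idh3g and Ogdh), where 17.3% of all genes tested fell. At day 1, 3 of 9 fell (Idh2, Idh3b and Ogdh), where 14.7% of all genes tested fell. Groups that did not overlap, with the infarct libraries lower, were found for 28.8% of all genes at day 7 and 25.1% at day 1. The median log2 fold change of the 9 genes was -0.65 at day 7 and -0.48 at day 1, beside -0.02 at day 7 and -0.01 at day 1 over all genes. In whole-tissue RNA, fewer heart muscle cells and less RNA per heart muscle cell cannot be told apart.

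**Figure D1:**
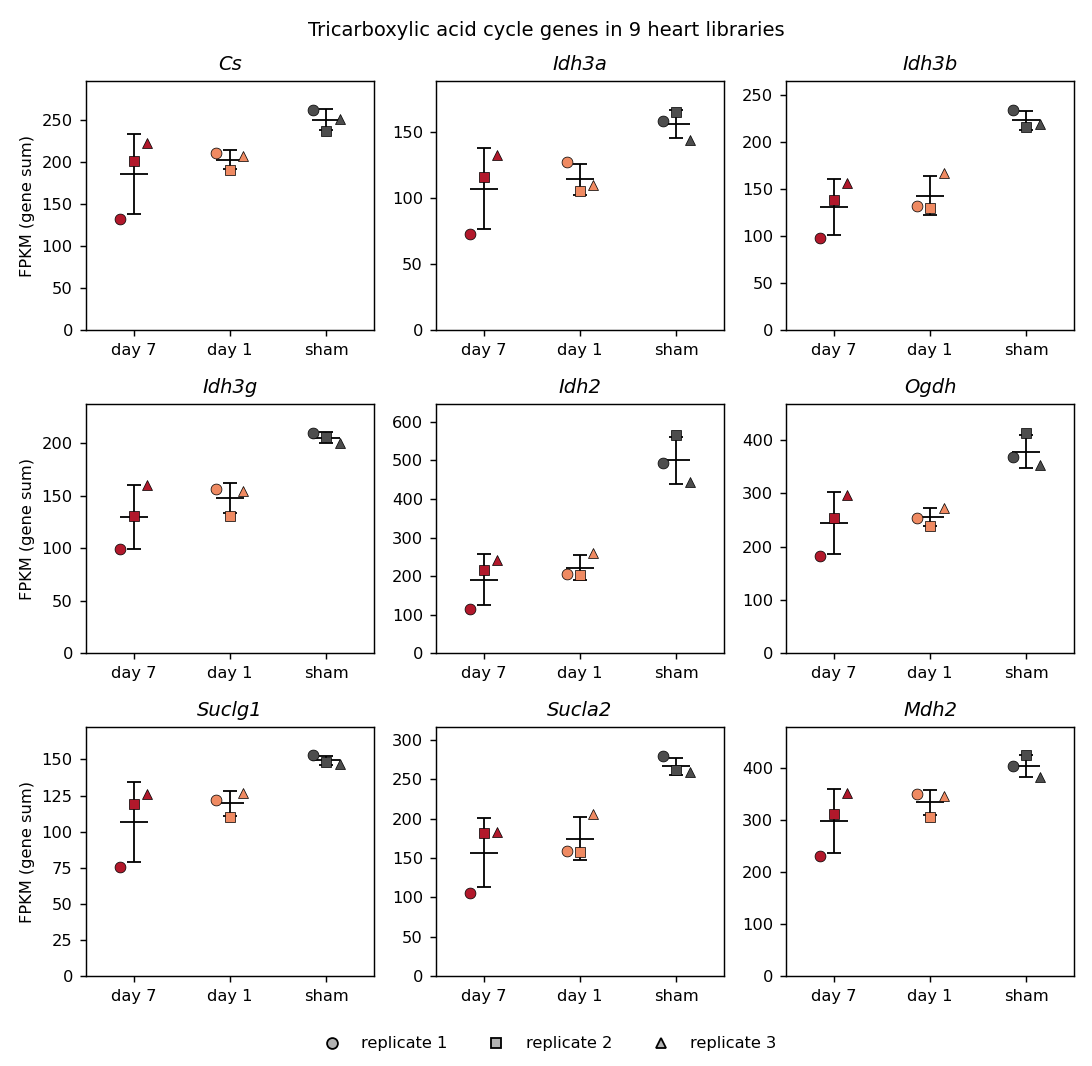
FPKM of each of the 9 cycle genes (vertical axes, from 0) in the 3 day 7, 3 day 1 and 3 sham libraries, with a marker shape for each replicate, the group mean as a long dash and the SD as bars (n = 3). In each panel the sham libraries lie above all infarct libraries, Idh2 has the widest gap, and day 7 replicate 1 is the lowest of the 9 libraries.

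Citrate synthase, encoded by Cs, opens the cycle by joining acetyl-CoA to oxaloacetate, and its activity is widely used as an index of mitochondrial content. Cs was at 132, 201 and 223 FPKM in the day 7 libraries, 211, 190 and 207 FPKM in the day 1 libraries and 262, 237 and 251 FPKM in the sham libraries. The infarct libraries lay below the lowest sham library at both times, by a narrow margin for the highest of them. The log2 fold change was -0.46 (SE 0.18, adjusted p = 0.0771) at day 7 and -0.30 (SE 0.18, adjusted p = 0.242) at day 1, and neither passed the test. Without day 7 replicate 1 the day 7 value was -0.24.

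The NAD-dependent isocitrate dehydrogenase, which drives the main flux from isocitrate to 2-oxoglutarate, has a catalytic subunit encoded by Idh3a and partner subunits encoded by Idh3b and Idh3g. Idh3b was at 98, 138 and 157 FPKM at day 7, 132, 130 and 167 FPKM at day 1 and 234, 216 and 219 FPKM in sham. It fell by 0.79 on the log2 scale at day 7 (SE 0.18, adjusted p = 0.013) and by 0.64 at day 1 (SE 0.18, adjusted p = 0.0279). The call was kept in 21 of 24 alternative ways of processing at day 7 and in 14 of 24 at day 1. Among other settings, the day 1 call was lost without sham replicate 1, 2 or 3 and without day 1 replicate 1 or 2, with adjusted p from 0.0665 to 0.0966, and under quantile normalization (0.0601). Idh3b shares exon sequence with Nop56 on the opposite strand in GENCODE M21. Whether strand was used in counting remains not given in the sources used here. Nop56, a ribosome assembly factor, averaged 13.9 ± 1.92 FPKM at day 7, 19.6 ± 4.29 FPKM at day 1 and 15.1 ± 1.54 FPKM in sham (SD, n = 3 each), far under the level of Idh3b.

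Idh3g was at 99, 131 and 160 FPKM at day 7, 157, 131 and 155 FPKM at day 1 and 210, 206 and 200 FPKM in sham, where its libraries were tightly grouped. It fell by 0.68 at day 7 (SE 0.17, adjusted p = 0.017), and its day 1 log2 fold change of -0.48 (SE 0.17, adjusted p = 0.0618) did not pass the test. The catalytic subunit gene Idh3a was at 72.9, 116 and 132 FPKM at day 7, 127, 105 and 110 FPKM at day 1 and 158, 165 and 144 FPKM in sham. Its log2 fold change was -0.58 (SE 0.20, adjusted p = 0.0557) at day 7 and -0.45 (SE 0.20, adjusted p = 0.129) at day 1, so the direction was shared by all 3 subunits while the calls were not. Without day 7 replicate 1 the day 7 value of Idh3a was -0.32. The day 7 call of Idh3g was kept in 18 of 24 alternatives, and without sham replicate 2 its adjusted p was 0.0537.

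Idh2 makes the same conversion in the matrix with NADP in place of NAD, and so supplies NADPH, which mitochondria use against oxidants. Its level was 116, 215 and 241 FPKM in the day 7 libraries, 205, 203 and 259 FPKM in the day 1 libraries and 493, 565 and 444 FPKM in the sham libraries. The highest infarct library was well below the lowest sham library. The group means were 190 ± 66.1 FPKM at day 7, 223 ± 31.8 FPKM at day 1 and 501 ± 60.7 FPKM in sham (SD, n = 3 each). Idh2 fell by 1.45 at day 7 (SE 0.26, adjusted p = 0.00684) and by 1.17 at day 1 (SE 0.26, adjusted p = 0.0135). Ordered from the largest fall, it was gene 73 of 13514 at day 7 and gene 112 of 13514 at day 1, while the next of the 9 genes stood at place 494 (Sucla2, day 7) and 821 (Idh3b, day 1).

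The day 7 call of Idh2 was kept under each of 24 alternative ways of processing, with adjusted p from 0.00417 to 0.037. The day 1 call was kept in 20 of 24. It was lost without sham replicate 2 (log2 fold change -1.08, adjusted p = 0.0527), without day 1 replicate 2 (-1.11, adjusted p = 0.051) and without both libraries that carried airway markers (-1.11, adjusted p = 0.111). It was also lost when each library was divided by its heart muscle marker sum, which left a day 1 log2 fold change of -0.36 (adjusted p = 0.0586). Without day 7 replicate 1, the day 7 log2 fold change was -1.13 (adjusted p = 0.00629).

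Ogdh encodes the substrate-binding E1 enzyme of the 2-oxoglutarate dehydrogenase complex, a rate-controlling step that releases carbon dioxide and NADH. It was at 182, 253 and 297 FPKM at day 7, 253, 239 and 273 FPKM at day 1 and 367, 413 and 353 FPKM in sham. All infarct libraries lay below the sham libraries, and Ogdh fell by 0.65 at day 7 (SE 0.17, adjusted p = 0.0232) and by 0.56 at day 1 (SE 0.17, adjusted p = 0.041). The call was kept in 16 of 24 alternatives at day 7 and in 9 of 24 at day 1, where the settings that lost it included no filter on low values (0.0632), TPM (0.0971) and the leaving out of any 1 of 7 libraries, with adjusted p from 0.0523 to 0.129. Of its 6 listed transcripts, the most abundant held 83.3% ± 0.502 of the gene's FPKM at day 7, 83.9% ± 0.755 at day 1 and 84% ± 0.251 in sham (SD, n = 3 each), which differed by about the spread between replicates.

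Succinate-CoA ligase forms succinate and a nucleoside triphosphate. Its alpha subunit comes from Suclg1, and its beta subunit comes from Sucla2 for the form that makes ATP or from Suclg2 for the form that makes GTP. Sucla2 was at 106, 182 and 183 FPKM at day 7, 159, 158 and 206 FPKM at day 1 and 279, 262 and 259 FPKM in sham. It fell by 0.80 at day 7 (SE 0.21, adjusted p = 0.0228), and the day 1 log2 fold change of -0.62 (SE 0.21, adjusted p = 0.0582) did not pass the test. The day 7 call was kept in 18 of 24 alternatives, and those that lost it included the fits without sham replicate 1 (0.0631), 2 (0.0637) or 3 (0.0528).

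Suclg1 was at 75.4, 119 and 126 FPKM at day 7, 122, 110 and 127 FPKM at day 1 and 153, 148 and 147 FPKM in sham, with log2 fold changes of -0.51 (SE 0.18, adjusted p = 0.0561) at day 7 and -0.32 (SE 0.18, adjusted p = 0.208) at day 1. Without day 7 replicate 1 the day 7 value was -0.28. The second listed transcript of Suclg1 held 1.08% ± 1.08 of the gene's FPKM at day 7, 6.35% ± 1.26 at day 1 and 3.43% ± 0.811 in sham (SD, n = 3 each). These shares did not overlap between any of the groups, but they rest on the division of reads among transcripts by a tool not given in the sources used here, and they were not tested.

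Mdh2, the mitochondrial malate dehydrogenase, closes the cycle by forming oxaloacetate. It was at 230, 311 and 352 FPKM at day 7, 350, 305 and 345 FPKM at day 1 and 404, 425 and 383 FPKM in sham. All infarct libraries lay below all sham libraries. The log2 fold changes were -0.46 (SE 0.16, adjusted p = 0.0537) at day 7 and -0.28 (SE 0.16, adjusted p = 0.221) at day 1, the smallest of the 9 genes at day 1. Neither passed the test, and the day 7 value was -0.29 without day 7 replicate 1.

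**Figure D2:**
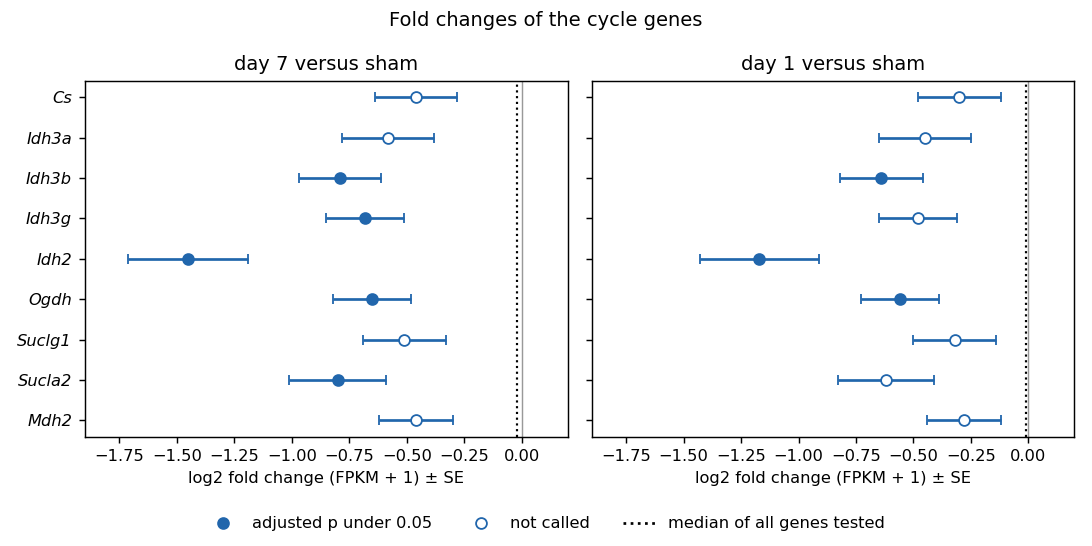
Log2 fold change of each cycle gene against sham (horizontal axes, log2 of FPKM + 1, bars are the SE) at day 7 on the left and day 1 on the right. Filled points passed an adjusted p under 0.05, which is 5 genes at day 7 and 3 genes at day 1, and the dotted line is the median of all genes tested, at -0.02 for day 7 and -0.01 for day 1.

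The counts of called genes depended on single libraries, and so did the counts over all genes. At day 7, 3 of the 9 genes were called lower without sham replicate 1 (1517 of all genes), 2 without sham replicate 2 (1042) and 9 without day 7 replicate 3 (2198), beside 2341 of all genes with every library. At day 1, none of the 9 was called without sham replicate 2 (816 of all genes) or without day 1 replicate 2 (790), and 1 was called without sham replicate 1 (1218), sham replicate 3 (1215) or day 1 replicate 1 (1237), beside 1993 of all genes with every library. Without day 7 replicate 1, which stands apart from the other libraries of its group, 5 of the 9 were called at day 7 (1307 of all genes) and 8 at day 1 (2299). Without both libraries with airway markers, 1 of the 9 was called at day 7 (1047 of all genes) and 0 at day 1 (146), where the log2 fold changes of Idh2, Idh3b and Ogdh were -1.11, -0.54 and -0.54. With all libraries in the fit, 9 of the 9 genes had an unadjusted p under 0.05 at day 7, as had 45.7% of all genes, and 5 had at day 1, as had 41.2% of all genes.

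Between day 7 and day 1, none of the 9 genes was called by limma, where 2.14% of all genes were called lower, and none had an unadjusted p under 0.05. All 9 log2 fold changes of day 7 against day 1 were negative, from -0.28 for Idh2 to -0.09 for Ogdh, with adjusted p from 0.502 to 0.801. The groups overlapped for each of the 9, while day 7 lay below day 1 without overlap for 14.1% of all genes. Day 7 replicate 1 was the lowest of all 9 libraries for 9 of 9 genes, and day 7 replicate 3 was the highest of its group for 9 of 9. Without day 7 replicate 1, 7 of the 9 log2 fold changes turned positive, up to 0.12 for Idh3a, and those of Idh3g and Mdh2 were -0.03 and -0.01.

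The order of levels among the 9 genes differed between infarct and sham hearts, among others in the place of Idh2. In sham it was the highest, at 501 FPKM, above Mdh2 at 404 FPKM with no overlap of their libraries. At day 7 the order began with Mdh2 at 298 FPKM, Ogdh at 244 FPKM, Idh2 at 190 FPKM and Cs at 185 FPKM, and each neighbouring pair overlapped. At day 1 Mdh2 at 333 FPKM was apart from Ogdh at 255 FPKM, while Ogdh, Idh2 at 223 FPKM and Cs at 203 FPKM overlapped in turn. Cs averaged above Sucla2 at day 7 and day 1 and below it in sham, and Idh3g averaged above Idh3b at day 1 only. The libraries of these pairs overlapped in every group, except those of Idh3b and Idh3g in sham. Idh3a and Suclg1 were the lowest of the 9 in every group, at 107 and 107 FPKM at day 7, 114 and 119 FPKM at day 1 and 156 and 149 FPKM in sham.

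Ratios of 2 genes within a library do not depend on how libraries are scaled. The ratio of Idh2 to Cs was 0.876, 1.07 and 1.08 at day 7, 0.974, 1.07 and 1.25 at day 1 and 1.88, 2.39 and 1.77 in sham. The infarct ratios lay below all sham ratios, at 0.503 times the sham value at day 7 and 0.547 times at day 1. A two-sided exact permutation test gave p = 0.1 for each, the smallest that 3 against 3 libraries can give, and 0.257 after adjustment over the 36 ratio comparisons made. Idh3b, Idh3g, Ogdh and Sucla2 also had ratios to Cs below those of sham in all infarct libraries at both times, with folds from 0.789 to 0.877 at day 7 and from 0.786 to 0.885 at day 1. Ratios to Cs that did not overlap sham, with infarct lower, were found for 4.26% of all other genes tested at day 7 and 7.84% at day 1. The ratios of Idh3a, Suclg1 and Mdh2 to Cs overlapped between infarct and sham.

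**Figure D3:**
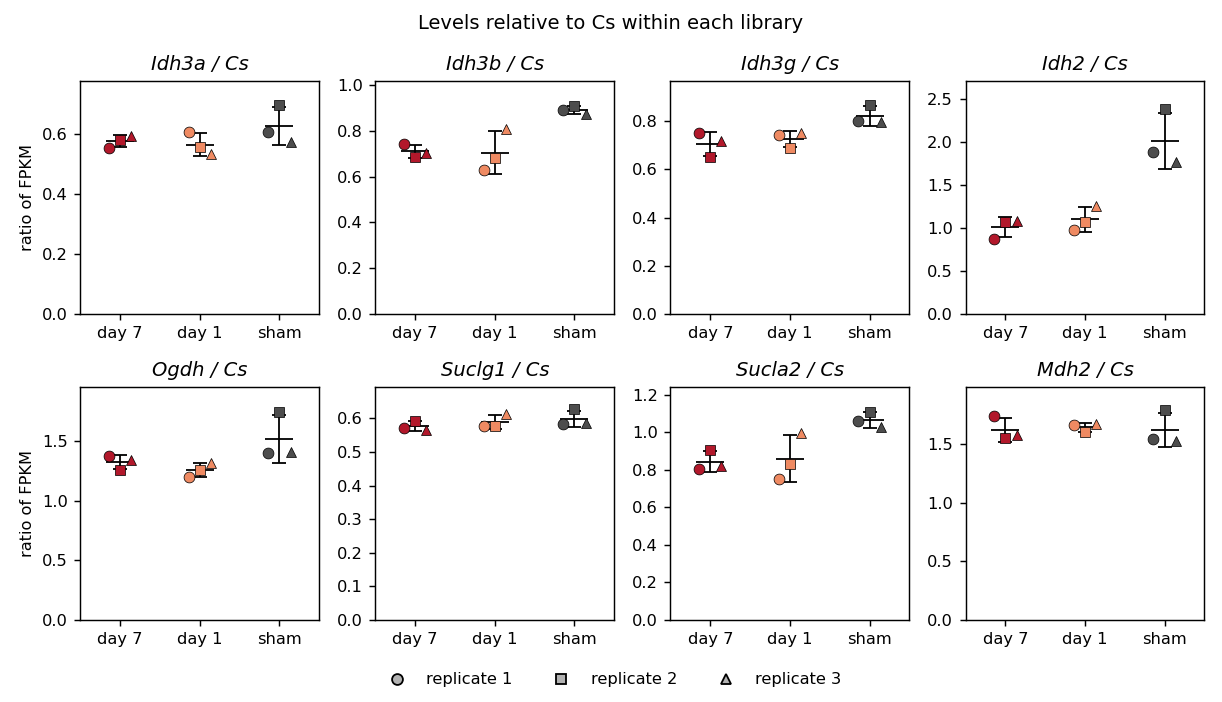
Ratio of the FPKM of 8 cycle genes to that of Cs in the same library (vertical axes, from 0), in day 7, day 1 and sham libraries, with the group mean as a long dash and the SD as bars (n = 3). The Idh2 ratio averaged 1.01 at day 7, 1.1 at day 1 and 2.01 in sham, while the Mdh2 ratio averaged 1.62 at day 7, 1.64 at day 1 and 1.62 in sham.

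Subunits of 1 enzyme were compared in the same way. The ratio of Sucla2 to Suclg1 was 1.41, 1.53 and 1.45 at day 7, 1.31, 1.44 and 1.63 at day 1 and 1.82, 1.77 and 1.77 in sham. The beta subunit transcript was thus lower relative to its alpha partner in all 6 infarct libraries. The exact permutation test gave p = 0.1 at each time, and 0.257 after adjustment over the 36 ratio comparisons, so it did not pass. The ratio of Idh2 to Idh3a, the NADP form set against the catalytic subunit of the NAD form, was 1.58, 1.84 and 1.83 at day 7, 1.61, 1.93 and 2.36 at day 1 and 3.11, 3.43 and 3.09 in sham. The infarct ratios again lay below all sham ratios, with the same p and adjusted p from the exact permutation test. The share of all genes with such a ratio to Suclg1 or Idh3a was not counted. Among the subunits of the NAD form, the ratios of Idh3b and Idh3g to Idh3a overlapped between infarct and sham at both times.

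The sum of the 9 genes was 1111, 1666 and 1871 FPKM at day 7, 1717, 1571 and 1850 FPKM at day 1 and 2560, 2636 and 2400 FPKM in sham. Markers of heart muscle cells moved with it: their sum over 8 genes was 13392, 20192 and 23587 FPKM at day 7, 18760, 16619 and 21059 FPKM at day 1 and 31997, 34549 and 31692 FPKM in sham. Of those 8 markers, 4 fell at day 7 and 5 at day 1, beside 17.3% and 14.7% of all genes tested. The sum of the 9 cycle genes over that of the heart muscle markers was 0.0829, 0.0825 and 0.0793 at day 7, 0.0915, 0.0945 and 0.0878 at day 1 and 0.08, 0.0763 and 0.0757 in sham. These ratios overlapped sham at day 7 and lay above sham at day 1. They depend on the abundant markers, which weigh most in the sum and did not all change alike. Myl2, Tnnt2 and Ryr2 were at 50.8%, 61.8% and 81.1% of sham at day 7 and at 44.4%, 71.5% and 101% at day 1. Relative to 9 genes of the mitochondrial outer membrane and protein import, the ratio was 1.77, 2.18 and 2.2 at day 7, 2.27, 2.28 and 2.24 at day 1 and 2.44, 2.38 and 2.31 in sham, below sham in all 6 infarct libraries. Idh2 is part of the sum of the 9. Taken gene by gene on this scale, Idh2 alone was called lower at day 1 (-0.67). Cs, Idh3a, Idh3g, Suclg1 and Mdh2 then had log2 fold changes of 0.19, 0.05, 0.02, 0.17 and 0.22. Those of Idh3b, Ogdh and Sucla2 were -0.15, -0.07 and -0.13.

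Markers of immune cells, fibroblasts and endothelial cells were measured beside the cycle genes. Of all genes tested, 15.7% were called higher and 17.3% lower at day 7, and 13.4% higher and 14.7% lower at day 1. Monocyte and macrophage markers summed to 777 to 1031 FPKM at day 7, 530 to 860 FPKM at day 1 and 320 to 603 FPKM in sham, with 4 of 8 higher at day 7 and 5 of 8 at day 1. Most of that sum was Lyz2, which averaged 750 FPKM at day 7, 517 FPKM at day 1 and 380 FPKM in sham. From day 1 to day 7, 5 of the 8 log2 fold changes were negative and 3 positive, with a median of -0.49. Fibroblast and matrix markers summed to 4346 to 6108 FPKM at day 7, 1699 to 2256 FPKM at day 1 and 1066 to 1348 FPKM in sham, with 4 of 6 higher at each time. Neutrophil markers summed to 28.3 to 69.1 FPKM at day 7, 116 to 310 FPKM at day 1 and 47 to 63.8 FPKM in sham, with 0 of 5 higher at day 7 and 5 of 5 at day 1. Of 5 endothelial markers none was called at either time, with sums of 221 to 294 FPKM at day 7, 212 to 298 FPKM at day 1 and 225 to 253 FPKM in sham. The part of these cells in the lower levels of the cycle genes was not tested.

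Fold changes were recomputed on other scales, because a scaling factor moves every gene of a library together. Rescaling each library to a common total (TPM) moved the median of all genes to 0.30 at day 7 and 0.23 at day 1, and the calls over all genes to 3809 higher and 527 lower at day 7 (2127 and 2341 on the FPKM scale) and 2445 higher and 601 lower at day 1 (1817 and 1993 on the FPKM scale). On that scale 3 cycle genes fell at day 7 (Idh2, Idh3b and Sucla2), where 3.9% of all genes fell, and 2 at day 1 (Idh2 and Idh3b), where 4.45% did. Divided by the outer membrane and import sum, which put the median of all genes at 0.42 at day 7 and 0.40 at day 1, Idh2 alone of the 9 was called lower, by 0.93 at day 7, where 2.04% of all genes were, and by 0.67 at day 1, where 2.01% were. Divided by the heart muscle marker sum, with all-gene medians of 0.66 at day 7 and 0.65 at day 1, Idh2 was called lower by 0.64 at day 7, as were 0.755% of all genes. On that scale Mdh2 was called higher by 0.36 at day 7, as were 61.7% of all genes, and Cs, Suclg1 and Mdh2 were called higher at day 1, as were 58.6% of all genes. Relative to the median of all genes, the log2 fold change of Idh2 ranged from -1.44 to -1.14 at day 7 and from -1.16 to -0.84 at day 1 over 7 scales. Apart from quantile normalization, these scales multiply a library by a single factor, which moves Idh2 and the median nearly alike. Their likeness is therefore not separate support. Quantile normalization gave the smallest differences, -1.14 at day 7 and -0.84 at day 1.

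**Figure D4:**
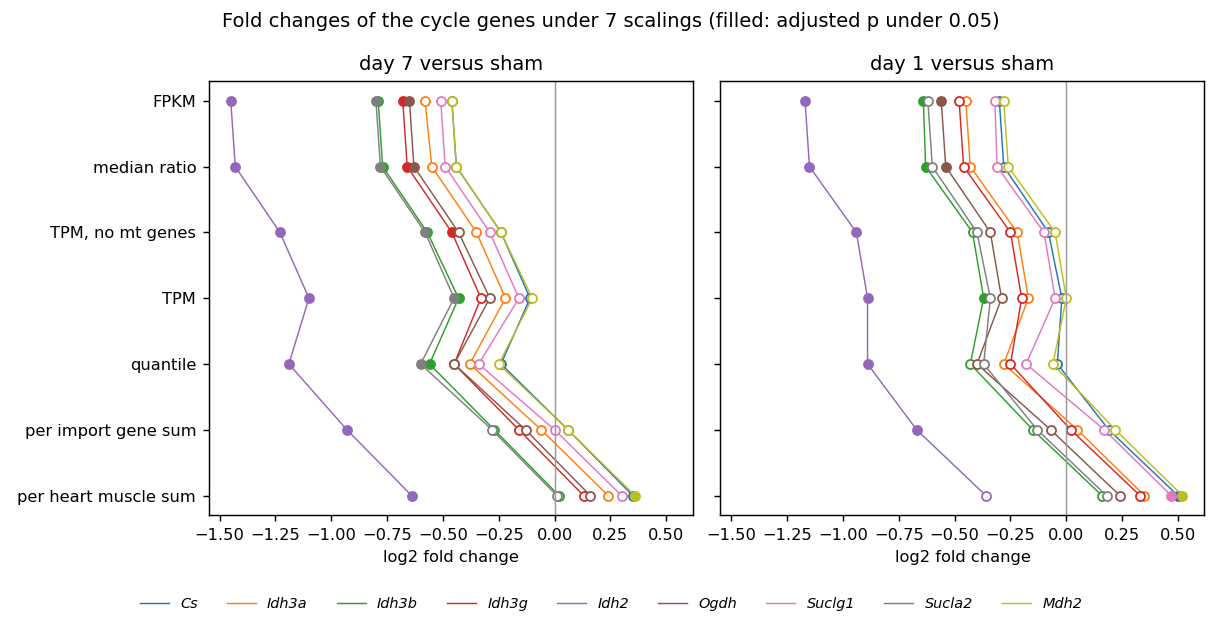
Log2 fold change of each cycle gene (coloured lines) at day 7 versus sham on the left and day 1 versus sham on the right, under 7 ways of scaling the libraries, filled where the adjusted p was under 0.05. Idh2 lies farthest to the left in every row, and the other 8 genes cross 0 when libraries are divided by the heart muscle marker sum.

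Of 9 further genes of the cycle, 8 fell at day 7 and 6 at day 1, beside 17.3% and 14.7% of all genes tested. Their median log2 fold changes were -0.74 at day 7 and -0.60 at day 1. Fh1, which encodes fumarase, averaged 111 ± 26.1 FPKM at day 7, 135 ± 14.9 FPKM at day 1 and 213 ± 4.66 FPKM in sham (log2 fold changes -0.96 at day 7 and -0.65 at day 1). Dld, the E3 enzyme shared by the 2-oxoacid dehydrogenases, fell by 0.78 at day 7 and by 0.71 at day 1. Sdhd, a membrane anchor of succinate dehydrogenase, fell by 0.57 at day 7 and by 0.81 at day 1, while Sdhb, its iron-sulphur subunit, was called at neither time (-0.51, adjusted p = 0.0791 at day 7, and -0.50, adjusted p = 0.0921 at day 1). Suclg2, the GTP-forming partner of Suclg1, fell by 0.74 at day 7 and by 0.60 at day 1. At neither time did any of these 9 genes, or any of the other 8 described above, have a fold change as large as that of Idh2.

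Pyruvate enters the cycle through the pyruvate dehydrogenase complex, which phosphorylation by its kinases switches off. Of 11 genes of the pyruvate dehydrogenase complex and its regulators, 6 fell and 1 rose at day 7, and 8 fell and 1 rose at day 1. The medians were -0.57 at day 7 and -0.56 at day 1. Of all genes tested, 17.3% fell and 15.7% rose at day 7, and 14.7% fell and 13.4% rose at day 1. Pdhb, the beta subunit of its E1 enzyme, fell by 0.81 at day 7 and by 0.93 at day 1, and the inhibitory kinase genes Pdk1 and Pdk2 fell by 0.89 and 0.77 at day 7 and by 0.85 and 0.74 at day 1. Pdk3, a kinase gene measured at a low level, was at 4.87, 3.44 and 3.42 FPKM at day 7, 4.96, 4.5 and 3.84 FPKM at day 1 and 2.12, 1.86 and 1.74 FPKM in sham. It rose by 0.75 at day 7 (adjusted p = 0.00705) and by 0.90 at day 1 (adjusted p = 0.0039). Pdk4, the kinase induced by fasting and fatty acids, varied widely, from 52.9 to 237 FPKM at day 7, 150 to 355 FPKM at day 1 and 168 to 237 FPKM in sham, and was not called.

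Of 8 assembly and lipoylation factors, 5 fell at day 7 and 6 at day 1, beside 17.3% and 14.7% of all genes tested. The medians were -0.34 at day 7 and -0.48 at day 1. Sdhaf4, a succinate dehydrogenase assembly factor, was at 27.5, 32.3 and 33.7 FPKM at day 7, 18.8, 18.4 and 21 FPKM at day 1 and 38, 36.6 and 40.4 FPKM in sham. It fell by 0.29 at day 7 (adjusted p = 0.0482) and by 0.95 at day 1 (adjusted p = 0.00148), and it was higher at day 7 than at day 1 by 0.65 (adjusted p = 0.0149), while none of the 9 cycle genes was called in that comparison. Mrps36, now known as a subunit of the 2-oxoglutarate dehydrogenase complex, fell by 0.52 at day 7 and by 0.63 at day 1.

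Isoenzymes that make related conversions outside the cycle mostly did not pass the test. Of 6 genes 1 fell at each time, near the share of all genes tested (17.3% at day 7 and 14.7% at day 1). For 2 of 6 at each time all infarct libraries lay below sham, as for 28.8% of all genes at day 7 and 25.1% at day 1. The gene that fell was Mdh1, the cytosolic malate dehydrogenase of the malate-aspartate shuttle. Mdh1 averaged 688 ± 154 FPKM at day 7, 600 ± 59.1 FPKM at day 1 and 1136 ± 60.5 FPKM in sham (-0.75, adjusted p = 0.0164 at day 7, and -0.92, adjusted p = 0.00893 at day 1). Idh1, the cytosolic counterpart of Idh2, averaged 25.8 ± 5.13 FPKM at day 7, 23.4 ± 2.56 FPKM at day 1 and 23 ± 2.12 FPKM in sham, with overlapping libraries and log2 fold changes of 0.15 (SE 0.15, adjusted p = 0.456) at day 7 and 0.02 (SE 0.15, adjusted p = 0.925) at day 1. Its difference from Idh2 was not tested. Acly was not called at either time and averaged 17.9 ± 1.52 FPKM at day 7 and 20.8 ± 4.25 FPKM at day 1. In sham replicate 1, which had the highest fat cell marker sum, Acly was at 48.6 FPKM, against 12.1 and 12 FPKM in sham replicates 2 and 3. The part of that library in the lack of a call was not tested.

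Of 13 genes that feed or drain the cycle, 5 fell and 0 rose at day 7, and 5 fell and 1 rose at day 1. The medians were -0.56 at day 7 and -0.44 at day 1. Of all genes tested, 17.3% fell and 15.7% rose at day 7, and 14.7% fell and 13.4% rose at day 1. Sham replicate 1 stood apart for Pcx (18.8 FPKM, against 6.68 and 6.05 FPKM in sham replicates 2 and 3). It also did for Slc25a1 (17.8 FPKM, against 3.74 and 3.83 FPKM), and neither gene was called. Me3, a mitochondrial NADP-dependent malic enzyme and thus another source of NADPH, averaged 14.9 ± 3.49 FPKM at day 7, 15.2 ± 2.07 FPKM at day 1 and 27 ± 0.85 FPKM in sham and fell by 0.84 at day 7 and by 0.80 at day 1. Its NAD-dependent relative Me2 had a log2 fold change of 0.23 at day 7 (adjusted p = 0.136) and rose by 0.39 at day 1 (adjusted p = 0.0312). Mut, which brings propionate carbon in as succinyl-CoA, fell by 0.79 at day 7 and by 0.51 at day 1. Glud1, glutamate dehydrogenase, had log2 fold changes of -0.02 at day 7 and -0.05 at day 1, with overlapping libraries. Among the side-branch enzymes, Adhfe1, a mitochondrial transhydrogenase, fell by 1.02 at day 7 (adjusted p = 0.0426) and had a log2 fold change of -0.58 at day 1 (adjusted p = 0.217).

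**Figure D5:**
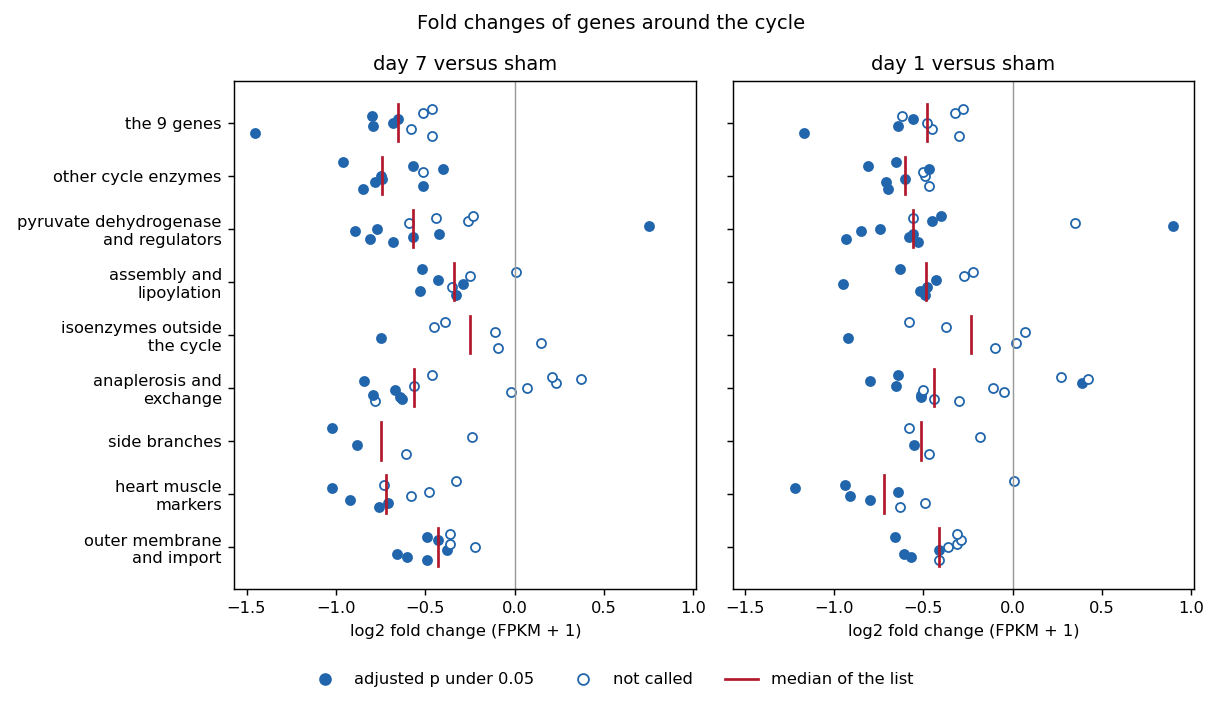
Log2 fold change against sham (horizontal axes) of every tested gene in the lists around the cycle at day 7 on the left and day 1 on the right, with 1 point per gene, filled where the adjusted p was under 0.05, and a line at the median of each list. Idh2 is the leftmost point of the top row at both times, and Pdk3 is the filled point at the far right.

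Genes with the most similar pattern were found by Pearson's correlation with the mean of the 9 genes over the 9 libraries, among 12065 other genes, as a description. Among the 8 closest were Ndufs1 (r = 0.999), Acadl (0.997), Atp5b (0.996), Sdha (0.995), Pdha1 (0.995), Pcca (0.994) and Vdac1 (0.993). These encode a complex I subunit, an acyl-CoA dehydrogenase, the ATP synthase beta subunit, the flavoprotein of succinate dehydrogenase, the E1 alpha subunit of pyruvate dehydrogenase, a propionyl-CoA carboxylase subunit and a channel of the outer membrane. The points share the scaling of each library, and day 7 replicate 1 was the lowest library for each of the 9 genes. The part of that library in these values was not tested. Each of the 9 genes correlated with the mean of the other 8 at r = 0.950 to 0.982, lowest for Cs.

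Promoters were read for members whose fold changes differed in size. RefSeq (GRCm38.p6) windows matched 8 of the 9 genes, and 250 bases before each start were searched on both strands for 5 motifs. The 140 bases just before a start are printed 5′ to 3′ along the gene's strand for Idh2 (chr7:80115351-80115490, minus strand), Mdh2 (chr5:135778509-135778648, plus strand), Ogdh (chr11:6291457-6291596, plus strand, of several starts) and Sucla2 (chr14:73552646-73552785, plus strand), with motif matches in capitals.
Idh2: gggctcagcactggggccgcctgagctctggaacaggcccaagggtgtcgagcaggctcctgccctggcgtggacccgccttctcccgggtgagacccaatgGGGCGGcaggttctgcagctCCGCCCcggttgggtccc
Mdh2: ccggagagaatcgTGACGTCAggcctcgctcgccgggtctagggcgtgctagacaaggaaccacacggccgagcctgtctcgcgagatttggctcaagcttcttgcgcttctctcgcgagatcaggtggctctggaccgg
Ogdh: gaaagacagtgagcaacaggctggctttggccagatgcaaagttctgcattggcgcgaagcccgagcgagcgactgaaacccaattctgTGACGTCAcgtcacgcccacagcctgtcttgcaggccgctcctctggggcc
Sucla2: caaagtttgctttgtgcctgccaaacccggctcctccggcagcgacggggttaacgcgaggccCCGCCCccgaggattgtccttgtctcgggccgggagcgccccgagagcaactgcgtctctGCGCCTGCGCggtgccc

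The palindrome TGACGTCA of the cyclic AMP response element was found in Mdh2, 127 bases before the start, and in Ogdh, 51 bases before the start shown, and it was found in 1.77% of the 27025 genes with such windows. A gene counted once if any of its windows held the motif. The 8 genes had 13 windows, several of them of Ogdh, which thus had more chances of a match. Over the 27025 genes there were 32851 windows. The Sp1 box GGGCGG, or CCGCCC on the other strand, was found in 5 of 8 genes (Cs, Idh2, Mdh2, Ogdh and Sucla2) and in 35.4% of all genes. In Ogdh it lay only in windows of starts other than the one shown. The NRF1 motif (GCGC, any base, then TGCGC), of a regulator of nuclear genes for mitochondria, was found in Sucla2 and in 4.23% of all genes, and the ETS motif CCGGAAG in Idh3g and in 7.83%. The core AAGGTCA bound by estrogen-related receptors was in none of the 8 genes and in 4.7% of all genes. No match overlapped a match of another motif. Idh2, with the largest fold change, and Cs and Mdh2, with smaller ones, shared the Sp1 box. A match describes these letters only, and nothing was drawn from a match or its lack about any factor.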

How the data were processed

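The deposited values are FPKM per transcript, made by the authors. Reads were handled with HISAT2 2.1.0 and HTSeq 0.11.2 on GRCm39 after FastQC 0.11.9, per the submitters' processing notes. The annotation release and the use of strand remain not given in the sources used here. Of the positive values 11.8% were under 1e-06, so reads had been divided in fractions, counts could not be recovered and depth is unknown. No sample column was left unused.

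FPKM were summed over the 55361 transcripts into 25468 genes. The 13514 genes with a mean of 1 FPKM or more were tested as log2(FPKM + 1), which understates the change of genes at low levels, with limma 3.58.1 in R 4.3.3. The fit let the variance follow the mean level and had 1 mean per group over all 9 libraries, two-sided tests and Benjamini-Hochberg adjustment over the genes tested, and the threshold for a call was 0.05. The procedure was tested on simulated data. Ratios were compared with exact permutation tests (scipy 1.17.1), and their p-values were adjusted over 36 comparisons.

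The 9 genes and the gene lists, with 123 entries of which 3 were matched by a synonym, were chosen with earlier results of these data known. Of each list around the cycle, up to 4 called genes with the largest absolute log2 fold change were named, plus some that show what was not called, and the 8 genes of most similar pattern. Nop56, Suclg2, Sdhb, Idh1, Me2, Glud1, Pdk4, Acly, Pcx and Slc25a1 were named after their values were seen. Alternatives covered the pseudocount, filters, scalings, the transcript summary, the variance model, the samples in the fit, the replicate number as a block, and left-out libraries. Scaling by 2 gene sums was added after seeing the data. RefSeq promoter sequences are of GRCm38.p6, and GENCODE M21 was used only for overlaps between genes and chromosome names. Some genes of the lists are not reported here by name.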

Additional observations from a re-analysis of the deposited data

How the results depend on the processing

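Of 24 alternatives per gene, the negative direction of all 9 cycle genes against sham was kept by each except the scalings named here. Counts are given for all genes as lower and higher. Leaving out each library in turn, 2 to 9 cycle genes were called lower at day 7 and 0 to 8 at day 1, and all genes called ranged from 1042 to 2618 lower and 1124 to 2276 higher at day 7, and from 790 to 2299 lower and 968 to 1957 higher at day 1. For day 7 against day 1 they ranged from 62 to 244 lower and 75 to 275 higher, beside 289 and 366 with all libraries. The log2 fold changes of day 7 against day 1 then ranged from -0.31 to 0.06 for Cs, -0.49 to 0.04 for Idh2, -0.30 to 0.12 for Idh3a, -0.29 to 0.05 for Idh3b, -0.25 to 0.11 for Ogdh, -0.31 to 0.08 for Sucla2 and -0.33 to 0.04 for Suclg1, positive only without day 7 replicate 1. When the 2 airway-marked libraries were dropped together, 1 cycle gene was called lower at day 7 and 0 at day 1, with 1047 and 1078 genes called at day 7, 146 and 256 at day 1, and 26 and 34 between the days.

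Under TPM, 3 cycle genes were lower at day 7, all genes called were 527 and 3809 at day 7, 601 lower at day 1, and 72 and 113 between the days, and Mdh2 stood at 0.00 at day 1. TPM without mitochondrially encoded genes left 1 cycle gene lower at day 1, with 1042 and 3844 genes called at day 7 and 886 and 3583 at day 1. Quantile normalization left 3 cycle genes lower at day 7 and 1 at day 1, beside 2189 and 2000 of all genes lower. With only the 2 groups compared in the fit, 7 cycle genes were lower at day 1, beside 2067 of all genes, and 88 and 78 genes were called between the days. A minimum mean of 5 FPKM, which tests fewer genes, left 1310 higher at day 7, 1199 at day 1 and 242 between the days.

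Scaled to the heart muscle marker sum, 1 cycle gene was lower and 1 higher at day 7, and 0 lower and 3 higher at day 1, with 102 and 8335 genes called at day 7, 72 and 7913 at day 1, and 66 and 49 between the days. On that scale the log2 fold changes at day 7 were 0.35 (Cs), 0.24 (Idh3a), 0.02 (Idh3b), 0.13 (Idh3g), 0.16 (Ogdh), 0.01 (Sucla2), 0.30 (Suclg1) and 0.36 (Mdh2), and at day 1 0.50, 0.35, 0.16, 0.33, 0.24, 0.18, 0.47 and 0.52 in the same gene order, while Idh2 stayed at -0.64 at day 7 and -0.36 at day 1. Scaled to the outer membrane and import sum, 1 cycle gene was lower at each time, with 276 and 6459 genes called at day 7, 271 and 5712 at day 1, and 66 and 62 between the days. There the log2 fold changes that turned positive were 0.06 (Cs), 0.00 (Suclg1) and 0.06 (Mdh2) at day 7, and 0.19 (Cs), 0.05 (Idh3a), 0.02 (Idh3g), 0.17 (Suclg1) and 0.22 (Mdh2) at day 1. The cause of each of these shifts, beyond the fewer genes or libraries in some fits, was not tested.

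Replicate numbers are shared by the groups. Deviations from the group means correlated at r from -0.37 to 0.269 between same-numbered libraries, with 4 of 9 pairs over 0.1. Between other libraries of different groups r was from -0.53 to 0.403, with 4 of 18 pairs over 0.1. These values, from 3 libraries a group, cannot decide whether the numbers pair the samples. With the replicate number as a block, 5 cycle genes were lower at day 7 and 2 at day 1, beside 1893 and 1590 of all genes, and 93 and 144 genes were called between the days. With 3 libraries a group and an unknown depth, differences such as those of Cs and Suclg1 against sham could be neither called nor taken as absent.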
